A study of Saccharomyces cerevisiae with 2 samples.

Results

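Yeast genes that carry only a systematic name were compared between a culture of Saccharomyces cerevisiae, budding yeast, treated with alpha factor, a mating pheromone, and a mock-treated culture. A systematic name such as YDR124W gives a reading frame's chromosome, arm, order and strand, and a gene keeps it as its only symbol until a function or phenotype earns it another. Of 5449 S. cerevisiae genes named on the array, 486 had only a systematic name after 13 reading frames of Ty retrotransposons were set aside. The members were the 67 of these whose level differed by 2-fold or more, a log2 difference of at least 1 in size, and was above the background level of 5.5 in at least 1 array. The members were chosen by that difference, so their counts and values describe these 2 arrays and were not tested. Of the 67 genes, 43 were higher with alpha factor and 24 were lower.

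Alpha factor is the peptide that alpha cells secrete and a cells detect through a surface receptor. A cells answer it through a G protein and a MAP kinase cascade that switches on mating genes through the transcription factor Ste12. They also arrest before S phase, so that transcripts of later cell cycle stages decline, and grow a projection towards the partner. Genes without a standard name are for the most part ones whose product has no assigned role in this or any other process. A few of them are known enzymes that kept the systematic name.

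Both cultures were of strain R276, an S288c derivative of the MATa mating type that carries the ura3Δ0, leu2Δ0, his3Δ1 and met15Δ0 alleles and the deletion bar1Δ::KanMX. BAR1 encodes the secreted protease that degrades alpha factor, so that the pheromone persists in the medium. The treated culture received 50 ng/ml alpha factor for 3 hours at 30°C in rich medium, after which about 90% of its cells had projections by the submitters' count. The control was mock-treated; its density and time of harvest are not stated by the labels. RNA of each culture was read on 1 Affymetrix Yeast 2.0 array, which has a single colour and also carries probe sets for the fission yeast Schizosaccharomyces pombe. With 1 array per condition no value has a replicate error or a p-value, differences between the cultures that have nothing to do with the pheromone cannot be told apart from its effect. Precision is limited by having so few arrays. In an array of bulk RNA, fewer cells of a kind and less RNA per cell cannot be told apart either. Values are log2 expression values, and differences are alpha factor minus no alpha factor.

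The arrays were checked on genes of known behaviour. BAR1, deleted in both cultures, was at 3.83 without and 3.63 with alpha factor, below background in each. URA3, LEU2 and MET17, the current name of MET15, were also below background in both arrays. HIS3 was at 11.80 and 12.21, well above it. Whether the HIS3 probe set lies outside the part that the his3Δ1 allele removes was not examined, so it checks nothing here. STE2, the alpha-factor receptor of a cells, was at 13.72 and 14.25. The a-cell markers other than BAR1 were all above background, and 2 of the 7 listed, AGA2 and ASG7, were higher by 2-fold or more. Of 4 alpha-cell markers, which should be off in a cells, MF(ALPHA)2 was at 6.36 and 8.64, STE3 at 7.74 and 9.49, SAG1 at 9.53 and 9.91, and MF(ALPHA)1, the main pheromone gene of alpha cells, at 5.85 and 5.93. The part of these signals in the members' differences was not tested. The log2 differences of the 1747 S. pombe probe sets lay between -0.64 and 0.68, so none reached 2-fold. Their median was 4.48 in both arrays, below background. Their range therefore does not measure the variation of expressed genes or of cultures.

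**Figure D1:**
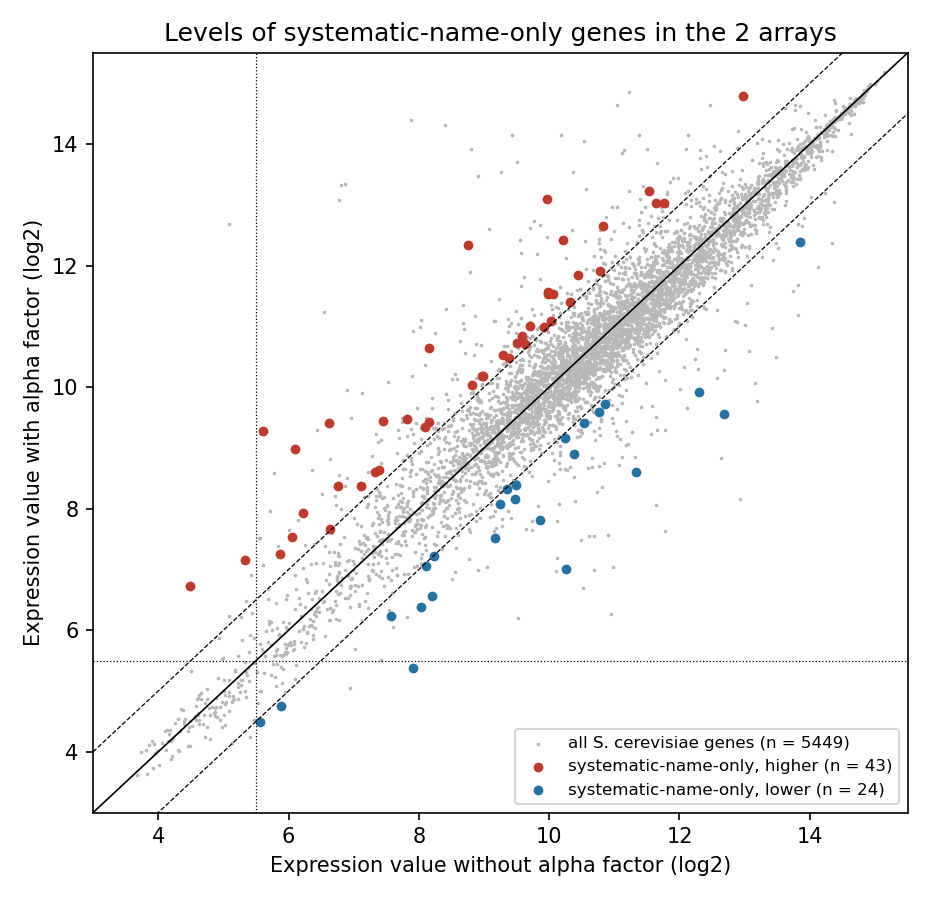
Expression value (log2) of every S. cerevisiae gene without alpha factor on the horizontal axis and with alpha factor on the vertical axis, 1 array each. Red points are the 43 higher and blue points the 24 lower genes with only a systematic name. The dashed lines mark a 2-fold difference and the dotted lines the background level of 5.5. The members lie outside the dashed lines by the rule that chose them, and their values ran from 4.49 to 14.79.

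Among all 5337 genes above background, 9.29% passed the 2-fold rule, 5.51% in the higher and 3.78% in the lower direction. Among the 430 genes above background with only a systematic name, 15.6% passed it, and among 4894 genes with another symbol 8.66% did. These shares come from the difference that defines the members, and nothing is read from them. Many members differed by little more than the rule asks: 20 of the 43 higher and 12 of the 24 lower genes differed by less than 2.5-fold. At 4-fold or more there were 8 higher and 6 lower members, or 1.86% and 1.4% of the 430 genes, beside 1.27% and 1.01% of all genes above background. At 8-fold or more there were 3 and 2 members, beside 25 higher and 18 lower among all 5337 genes. The 30 highest differences of all genes above background included 4 members, and the 30 lowest included 4. Genes with only a systematic name were 430 of the 5337, and nothing is read from these counts either. Higher members had a median level of 8.99 without and 10.53 with alpha factor, and lower members had one of 9.48 without and 8.12 with it. The 363 systematic-name genes above background that were no members had a median difference of 0.00, with 90% of them between -0.73 and 0.72, and the median over all genes above background was -0.03.

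Genes with only a systematic name gave lower signals than others, with a median of 9.29 without alpha factor against 10.79. The share of genes past the 2-fold rule is therefore also given by signal. Where a gene's mean signal over both arrays was under 8, 13.5% of systematic-name genes and 13.5% of other genes passed the rule. Between 8 and 10 the shares were 18.0% and 12.3%, and between 10 and 12 they were 15.4% and 7.60%. At 12 and over, 5 of 31 systematic-name genes passed the rule, or 16.1%, against 5.71% of 1139 others. These shares too come from the difference that chose the members, and nothing is read from them.

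**Figure D2:**
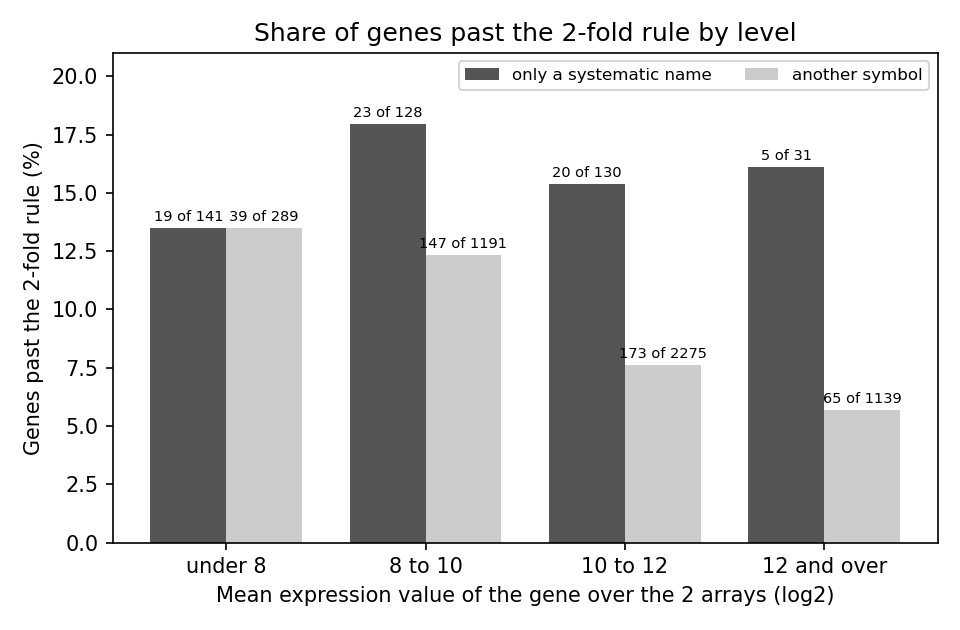
Percent of genes past the 2-fold rule, by the gene's mean expression value over the 2 arrays (log2), for genes with only a systematic name (dark bars) and genes with another symbol (light bars); the counts stand above the bars. In the lowest range both bars stand at 13.5%, and in the highest they stand at 16.1% and 5.71%.

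The members with the highest differences had no assigned function or one known only by similarity. YNL042W-B, a short reading frame, went from 5.60 without to 9.28 with alpha factor, a log2 difference of 3.68. It was at rank 14 among all genes on the array, and started just above background. The annotation places a tRNA gene across the start of YNL042W-B, and whether its probe set also reads that RNA was not examined. YDR124W, whose product has no known role, was at 8.76 and 12.35, a log2 difference of 3.59, and stood at rank 17. YPL088W, which resembles aryl-alcohol dehydrogenases, was at 9.96 and 13.09, or 8.73-fold higher, at rank 21. These 3 were the members above 8-fold.

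**Figure D3:**
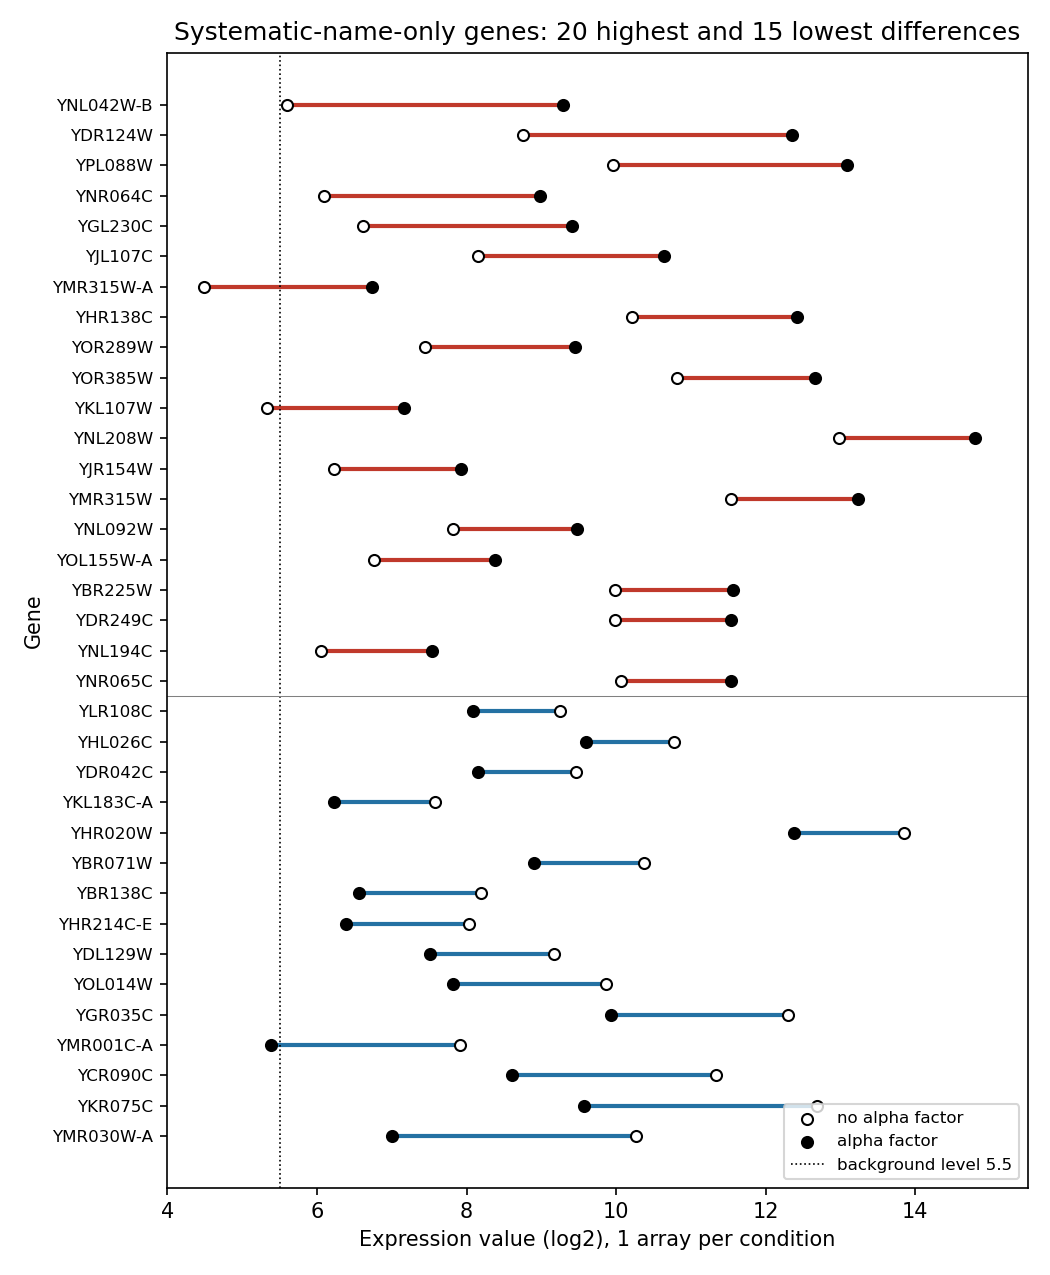
Expression value (log2) of the 20 members with the highest and the 15 with the lowest difference, without alpha factor (open circles) and with it (filled circles), 1 array per condition. Red lines join values that were higher and blue lines values that were lower with alpha factor; YMR315W-A and YKL107W start below the dotted background level of 5.5 and YMR001C-A ends below it.

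A further 5 genes had measured differences above 4-fold, of which 1 has only a smaller bound. YNR064C, an epoxide hydrolase, was at 6.10 without and 8.98 with alpha factor, which is 7.37-fold. The uncharacterised YGL230C went from 6.62 to 9.41, or 6.92-fold, and the likewise uncharacterised YJL107C from 8.16 to 10.64, or 5.60-fold. YHR138C, a relative of the vacuolar proteinase B inhibitor Pbi2, was at 10.21 and 12.42, a 4.64-fold difference. For YMR315W-A, which was below background at 4.49 in the control and at 6.73 in the treated culture, only a bound is given, and it was at least 2.35-fold higher. In the control YMR315W-A was under background and YNR064C and YGL230C were not far above it, whereas YJL107C and YHR138C were clearly above it in both arrays.

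Enzymes and enzyme-like proteins were found among the higher members, a grouping made from textbook knowledge after the values were seen. YMR315W, an NADPH-linked oxidoreductase, was at 11.53 and 13.23, or 3.26-fold higher. YDL124W, an aldo-keto reductase that acts on alpha-keto amides, was at 11.64 and 13.03, or 2.62-fold higher. YKL107W, which resembles short-chain dehydrogenases, was under background at 5.33 in the control and at 7.16 with alpha factor, at least 3.17-fold higher. YGL185C, similar to hydroxyacid dehydrogenases, was close to the rule, at 9.93 and 10.99. These genes were picked from the higher members, so their shared direction is no result.

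Further enzymes, also picked after their values were seen, are given next. YJL068C, the S-formylglutathione hydrolase of formaldehyde detoxification, was at 10.32 and 11.41, or 2.12-fold higher. YNL092W, a methyltransferase, was at 7.82 and 9.47, a 3.13-fold difference. YLR345W, a relative of the enzymes that make and break fructose 2,6-bisphosphate, went from 9.29 to 10.53, or 2.36-fold. YDR248C, which resembles gluconokinases, was at 9.38 and 10.49, and YJL070C, which resembles AMP deaminase, at 8.99 and 10.19. Both stayed under 2.5-fold. Among the lower members was YHR020W, a prolyl-tRNA synthetase, which charges tRNA with proline for protein synthesis. YHR020W was at 13.85 without and 12.38 with alpha factor, or 2.77-fold lower.

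Some higher members resemble membrane or sorting proteins, again picked after their values were seen and with no count over all members. YNR065C, a relative of the vacuolar sorting receptor Pep1, was at 10.07 and 11.54, a 2.77-fold difference. YNL194C, a relative of the eisosome protein Sur7, which sits in furrows of the plasma membrane, went from 6.05 to 7.54, or 2.80-fold. The adjacent frames YOL162W and YOL163W, which resemble the allantoate transporter Dal5, were at 7.33 and 6.64 in the control. With alpha factor they were at 8.61 and 7.67, so that YOL163W, at a log2 difference of 1.03, was the higher member closest to the rule. YBR287W, a membrane protein of unknown role, was at 11.76 and 13.03, or 2.40-fold higher.

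The other genes among the 20 highest differences had no role that could be stated here. YOR289W was at 7.45 and 9.45, just under 4-fold higher. YOR385W, a relative of DIA1, was at 10.82 and 12.65, or 3.57-fold higher. YNL208W went from 12.97 to 14.79, or 3.53-fold, and its value with alpha factor lay near the top of the scale, where differences can be compressed. YJR154W was at 6.22 and 7.93, or 3.27-fold higher, and YOL155W-A at 6.77 and 8.37, or 3.05-fold higher. YBR225W was at 9.98 and 11.57, and YDR249C at 9.99 and 11.54, which is 3.00-fold and 2.93-fold. The remaining higher members, which lay between 2.04-fold and 2.66-fold, included YBR053C at 10.44 and 11.85, YLR031W at 5.88 and 7.25, YCL049C at 9.71 and 11.01, YNL115C at 9.58 and 10.85, and YPR078C at 7.11 and 8.37. The probe set of YNL033W, at 7.38 and 8.63, can match more than 1 transcript, which makes its value uncertain.

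Among the lower members, the largest difference without a pseudocount was that of YMR030W-A, a reading frame of unknown function, which went from 10.26 without to 7.005 with alpha factor, or 9.57-fold lower. It stood at rank 12 from the bottom among all genes. YKR075C, at 12.68 and 9.57, was 8.66-fold lower and at rank 15. YCR090C was at 11.34 and 8.60, or 6.66-fold lower. These 3 were well above background in both arrays.

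YMR001C-A was at 7.91 in the control and at 5.38, below background, with alpha factor, so that it was at least 5.31-fold lower. YGR035C went from 12.29 to 9.92, or 5.17-fold lower, and YOL014W from 9.86 to 7.82, or 4.11-fold lower. No role of these genes can be stated here. The next lower genes were YDL129W at 9.17 and 7.51, YHR214C-E at 8.03 and 6.39, and YBR138C at 8.20 and 6.56, which were 3.14-fold, 3.12-fold and 3.11-fold lower. YBR071W was at 10.38 and 8.90, or 2.79-fold lower. All of these were above background in both arrays except YMR001C-A.

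The other genes among the 15 lowest differences lay between 2.24-fold and 2.53-fold. They were YKL183C-A at 7.57 and 6.23, YDR042C at 9.47 and 8.16, YHL026C at 10.77 and 9.60, and YLR108C at 9.25 and 8.08. Of the lower members beyond these 15, YNL046W was at 10.86 and 9.73, YMR230W-A at 10.53 and 9.42, YNR014W at 9.49 and 8.39, and YML119W at 10.24 and 9.16. YAR066W was at 8.10 and 7.06, and its probe set too can match more than 1 transcript. In YBL008W-A, at 5.89 and 4.75, and YMR317W, at 5.56 and 4.49, the treated value was below background, and the bounds on their differences were 1.31-fold and 1.04-fold, under the 2-fold rule. These 2 genes are members only because the rule takes measured values rather than bounds.

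At the edge of the rule, the 3 higher genes just inside it were YOL163W, YGL185C and YJR142W, with log2 differences of 1.03, 1.07 and 1.07. Just outside it were YJR096W at 0.97, YOR238W at 0.96 and YPR027C at 0.94. On the lower side, YER187W at -1.01, YPL162C at -1.03 and YAR066W at -1.04 were just inside, and YJR098C at -0.9995, YOR316C-A at -0.96 and YNL234W at -0.92 were just outside. With 1 array per condition these genes cannot be separated by the rule.

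Names with a letter suffix, such as YMR030W-A, belong to reading frames that were added after the first annotation of the genome and are mostly short. Of the 67 members 11 had such a suffix, or 16.4%, against 84 of the 363 systematic-name genes above background that were no members, or 23.1%. Among the lower members 6 of 24 had one, and among the higher 5 of 43. The suffixed genes YNL042W-B and YMR030W-A had the highest and the lowest difference, but not with a pseudocount of 32, which is added before the log and lowers the differences of dim genes. With it, YNL042W-B was at 3.02, below YDR124W at 3.49 and YPL088W at 3.09, and YMR030W-A was at -2.97, after YKR075C at -3.06.

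Each member was next set beside its adjacent protein-coding genes in the RefSeq order of assembly R64 that were measured on the array. The probe sets of 3 such neighbours, YAR064W beside YAR066W, RPS10B beside YMR230W-A and YNL034W beside YNL033W, can match more than 1 transcript, and none of these 3 passed the rule. At least 1 adjacent gene past the 2-fold rule was found for 23 of the 67 members, or 34.3%. The share was 15.7% over 5284 measured genes and 33.9% over the 419 genes with another symbol that passed the rule, and these last shares lay close together. An adjacent gene in the same direction was found for 21 members, or 31.3%, of which 18 were higher and 3 lower. Adjacent genes in the opposite direction were found for 3, or 4.48%. For the genes with another symbol that passed the rule these shares were 23.6% and 11.2%. Leaving out neighbours that are members, a setting chosen after seeing the data, gave the members 23.1% and 4.62%, or 15 and 3 of 65. No neighbours were left out for the genes with another symbol. The neighbours were measured on the same 2 arrays as the members, so these counts are a description.

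The orientation of these pairs is given beside that of other genes. Of the 24 relations in which a member and its neighbour passed the rule in the same direction, 21 were tandem, with both genes read from the same strand in the same direction, 2 were divergent and 1 was convergent. Among the 21, 4 pairs of adjacent members were counted from each end. Pairs of genes with another symbol were likewise counted from each end. Of the members' 125 relations to measured neighbours in all, 71 were tandem, 26 divergent and 28 convergent. For genes with another symbol that passed the rule, 43 of 390 tandem, 49 of 189 divergent and 9 of 193 convergent relations were in the same direction. In the opposite direction, tandem neighbours passed the rule in 0 of 71 relations of members and in 30 of 390 of the other genes. No test was made of these differences, since pairs share genes and arrays.

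**Figure D4:**
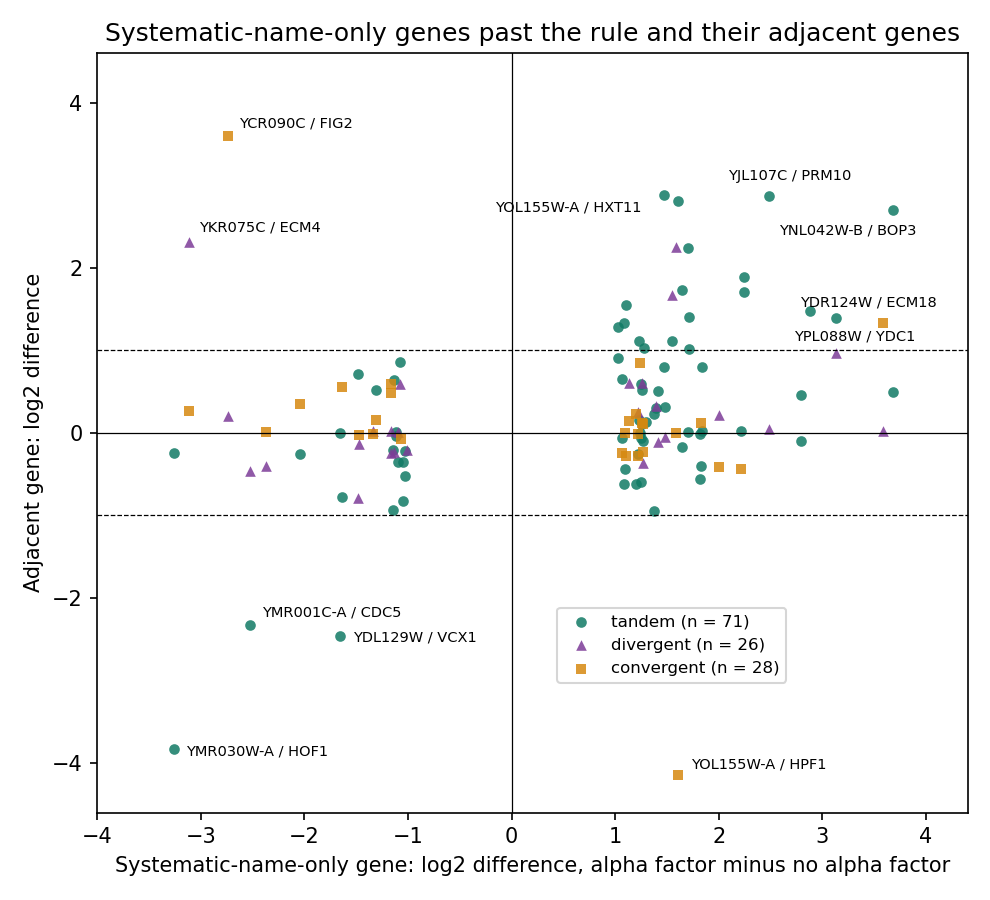
Log2 difference (alpha factor minus no alpha factor) of each member on the horizontal axis and of each of its measured adjacent genes on the vertical axis, marked by orientation (71 tandem, 26 divergent, 28 convergent relations), as measured, with no bound for genes below background. Dashed lines mark a 2-fold difference of the adjacent gene; most points lie between them, tandem points beyond them lie on the member's side, and YCR090C beside FIG2, YKR075C beside ECM4 and YOL155W-A beside HPF1 lie on the opposite side.

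YJL107C, YDR124W and YCR090C lay beside genes on the mating list, and the neighbours of YPL088W and YNL042W-B given here are not on it. How often other genes lie beside a gene of the mating list was not counted, so nothing is read from this. YJL107C lies directly upstream of PRM10, a pheromone-regulated membrane protein gene, on the same strand, and the annotation lets the frames overlap slightly. PRM10 was at 9.55 without and 12.42 with alpha factor, a log2 difference of 2.86 against 2.49 for YJL107C. Whether the probe set of YJL107C also reads PRM10 RNA was not examined. YDR124W faces ECM18, which was at 6.73 and 8.06, a log2 difference of 1.33. YPL088W is followed on the same strand by YDC1, a ceramidase gene, at 10.56 and 11.95, and shares its upstream region with RLM1, a transcription factor gene of cell wall integrity, whose log2 difference of 0.96 was under the rule. YNL042W-B is followed by BOP3, which was at 10.57 and 13.27, or 6.51-fold higher.

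YCR090C was the reverse case. It faces FIG2, which encodes a cell surface adhesin of mating cells, and the genes end next to each other on opposite strands. FIG2 went from 11.04 to 14.64, or 12.1-fold higher, while YCR090C was 6.66-fold lower. KIN82, on the other side of YCR090C, had a log2 difference of 0.20. Whether the probe set of YCR090C is specific to its strand was not examined.

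The lower members YMR030W-A and YMR001C-A lay beside a gene on the G2/M list, and YDL129W lay beside another gene that was lower. The lower member YPL162C lay beside SVS1, on the G1/S and cell wall integrity lists, with a log2 difference of -0.22. YBR071W, also lower, lay beside HSP26, on the stress list, at 0.71. Neither neighbour passed the rule. How often other genes lie beside a gene of these lists was not counted. An adjacent gene in the same direction was found for 12.5% of the lower members. The share was 23.6% for genes with another symbol that passed the rule in either direction. YMR030W-A follows HOF1, a cytokinesis gene, on the same strand, and HOF1 was at 10.53 and 6.69, a log2 difference of -3.83 against -3.26 for YMR030W-A. ARP9, on its other side, had a log2 difference of -0.25. Whether the probe set of YMR030W-A also reads HOF1 RNA was not examined. YMR001C-A lies upstream of CDC5, the polo kinase gene of mitotic exit, on the same strand. CDC5 was at 11.57 and 9.24, a log2 difference of -2.33, beside the bound of 5.31-fold for YMR001C-A. YDL129W lies upstream of VCX1, the vacuolar calcium and proton exchanger, which was at 12.11 and 9.65, a log2 difference of -2.46.

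In 4 places 2 members were themselves adjacent, in each case in tandem and both higher. YDR249C lies upstream of YDR248C, with log2 differences of 1.55 and 1.11, and on its other side YDR249C shares its upstream region with PAM1, at 1.67. YNR065C lies upstream of YNR064C, at 1.47 and 2.88. YOL163W lies upstream of YOL162W, at 1.03 and 1.28. YMR315W is followed by YMR315W-A and then by DIA1, all on the same strand, and YMR315W and DIA1 had log2 differences of 1.70 and 1.88. For YMR315W-A, below background in the control, the bound was a log2 difference of at least 1.23. DIA1 is the relative of YOR385W named above, and it went from 10.25 to 12.13.

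Other members had a higher neighbour outside the mating and cell cycle lists. YJR154W lies between PGU1, a pectinase gene, and AAD10, an aryl-alcohol dehydrogenase gene, all in tandem, with log2 differences of 1.02 and 1.40 for the neighbours. YBR225W shares its upstream region with TDP1, a DNA repair gene, which was at 8.70 and 10.95. YNL092W follows YPT53, a Rab GTPase gene of endocytosis, with a log2 difference of 1.74, and YJL068C follows MPM1, at 1.33. YOR034C-A follows SHE4, a myosin chaperone gene, at 1.12 beside its own 1.23. YOL155W-A stood between neighbours with opposite differences. HXT11, a hexose transporter gene upstream of it, was 7.01-fold higher, and HPF1, a cell wall mannoprotein gene that faces it, was 17.6-fold lower. YKR075C, which was lower, shares its upstream region with ECM4, a glutathione transferase gene that was at 8.86 and 11.18.

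For the remaining 44 members, no adjacent measured gene passed the rule. These included YGL230C, whose neighbours SAP4 and EMC4 had log2 differences of -0.10 and 0.46, and YHR138C, whose neighbours ARO9 and SPS100 were at -0.44 and 0.03. YGR035C lies beside RPL26B, a ribosomal protein gene, at 0.00, and YHR020W shares its upstream region with DED81, the asparaginyl-tRNA synthetase gene, at -0.14.

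The named genes around these members are given by lists for comparison. By the 2-fold rule 27 of 35 mating genes were higher and 1 was lower, and the list's median log2 difference was 2.73. The 35 include BAR1, which is deleted in both cultures, and 34 of them were above background. For 38 measured G1/S genes the counts were 1 and 23 with a median of -1.12, for 19 G2/M genes 0 and 10 with -1.01, and for 23 M/G1 genes 1 and 8 with -0.59. Cell wall integrity genes were higher in 12 of 21 cases with a median of 1.29, and stress genes in 11 of 28, with 1 lower and a median of 0.93. The single genes against their list were PRM7 among the mating genes at -1.42, PCL2 among the G1/S genes at 2.97, PIR3 among the M/G1 genes at 1.62 and YGP1 among the stress genes at -1.12. FIG2, PRM10 and ECM18 are on the mating list, and HOF1 and CDC5 on the G2/M list.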

How the data were processed

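The deposited table holds 1 log2 expression value per probe set and sample for 10928 probe sets that the authors computed with affy, a Bioconductor package, per the labels' design text. Neither its version nor how background, scaling and probe set summary were handled is given in the sources used here. The values were taken as log2 because they ran from 3.32 to 15.19. The sorted columns differed by at most 0.09, so the arrays may have been scaled to each other, which would remove a change in total mRNA. Groups came from the sample titles, since the free-text description is the same for both samples.

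Probe sets were named through the platform annotation and matched, through their gene IDs, to RefSeq's gene table (assembly R64): 5498 probe sets of 5449 S. cerevisiae genes, with 12 symbols updated, and 1747 taken as S. pombe. Probe sets of 1 gene were averaged; each member had 1. The background level of 5.5 was that of the rule, and the 95th percentile of the S. pombe probe sets was also 5.5 in both arrays. No pseudocount was added. Where the dimmer value was below background, the fold is a bound set against that level. Ty frames were left out by a list of their names. Neighbours were adjacent protein-coding genes, and strand was read from the systematic name. No coordinates are given, since no genome build is named for the values.

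The members and lists were chosen with earlier results of these data known. Named by rule were the 20 highest and 15 lowest members, 3 genes on each side of the threshold, members with an adjacent gene past the rule, and members with a shared probe set; other genes were chosen after their values were seen. Promoter motifs and protein features that had been planned were not analysed here. Calling was tested on simulated data with changes of 4-fold or more and noise taken from the S. pombe probe sets. That test says nothing about calls near the 2-fold rule or about variation between cultures. Python 3.11.15 was used with pandas 2.3.3, numpy 2.4.6 and statsmodels 0.14.6.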

Additional observations from a re-analysis of the deposited data

How the results depend on the processing

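The counts of 43 higher and 24 lower members moved by over 1.5 times only when the fold rule itself was changed: with a log2 difference of 0.58 they were 78 and 59, and with one of 2 they were 8 and 6. Under equal S. cerevisiae or S. pombe medians, the brightest probe set, quantile normalization, subtraction of a loess curve, other background levels, no level rule, unshared probe sets and the platform's own symbols, the higher count lay between 42 and 45 and the lower between 22 and 25. A pseudocount of 32, which lowers the differences of dim genes, gave 42 and 19, and took out YAR066W, YBL008W-A, YER187W, YMR317W, YOL163W and YPL162C. Leaving out the 5 members below background in the dimmer array, an alternative chosen after seeing the data, gave 41 and 21. All 35 members with the highest and lowest differences kept their sign and stayed past the rule under the 4 scalings and the pseudocount. The pseudocount changed the size of a difference by up to -0.90 on the log2 scale. The brightest probe set could not change these genes, since each member had 1 probe set. They were the most extreme of genes chosen by this difference. The sorted columns already differed by at most 0.09, so the scalings could move them little, and nothing is read from their stability. The count of 23 of 67 members with an adjacent gene past the rule became 3 of 26 when only divergent neighbours were taken. That is 11.5%, beside 8.39% of 2514 genes with a measured divergent neighbour. The count was 17 of 65, or 26.2%, when neighbours that are members were left out, an alternative chosen after seeing the data. No paired analysis was possible because each group has 1 array, and no replicate could be left out. Variants of promoter motifs and hydrophobic segments were not run, since no sequence table was used here.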
